A study of Homo sapiens with 6 samples.

Results

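The genes described here are 10 members of the bone morphogenetic protein (BMP) pathway and its transcriptional output. They are the inhibitor of DNA binding genes ID1, ID2, ID3 and ID4, the feedback inhibitors SMAD6, SMAD7 and BAMBI, the helix-loop-helix gene ATOH8, and the ligand genes BMP2 and BMP4. They make up 10 of the 56303 genes in the table of counts and were taken from it by gene symbol. The list was chosen by the difference between the same 2 groups of libraries that are compared below, so the members' values and the counts of calls among them are given only as a description.

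RNA-seq was performed on T24, an established line of human bladder carcinoma cells, to look for the route by which the F-box protein FBXL6 acts on bladder tumour growth. F-box proteins are the substrate-binding subunits of SCF ubiquitin ligases. Wild-type T24 cells received either the control siRNA siNC (n = 3 libraries) or siFBXL6, an siRNA against FBXL6 (n = 3 libraries), and all 6 libraries carry the same batch label. Which of the study's siRNA sequences against FBXL6 was used for these libraries is not given in the sources used here, so the effect of a second, independent siRNA cannot be read from them. The labels number the libraries 1 to 3 in both groups. These are read here as replicates, and whether the siFBXL6 libraries all had the same siRNA is not given.

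The 6 libraries were of similar depth. The siNC libraries held 58646515, 60967902 and 56814946 counts and the siFBXL6 libraries held 60968158, 60898556 and 60754015. Levels are given as CPM, the counts of a gene scaled to a common library size, with library sizes adjusted by the trimmed mean of M values (TMM), whose factors ran from 0.992 to 1.01. The call rule for a change was an adjusted p below 0.05 in edgeR's quasi-likelihood test. Nothing in the labels says that the libraries of a group came from separate cultures, so the p-values measure only the spread between these libraries, which may be technical.

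FBXL6 itself did not separate the groups. Its counts were 362, 414 and 398 in the siNC libraries and 398, 344 and 350 in those labelled siFBXL6, and the ranges overlapped. The log2 fold change was -0.13 (95% interval -0.31 to 0.05, adjusted p = 0.247 in edgeR), or -0.20 without siFBXL6 replicate 1 (adjusted p = 0.112), and an exact two-sided permutation test of CPM gave p = 0.2, where 0.1 is the smallest that 3 against 3 libraries allow. Its exons overlap those of SLC52A2, which runs the other way, over 31.7% of their bases and those of GS1-393G12.13, on its own strand, over 5.3%, and the strand setting of the counting is not given in the sources used here. Since this transcript did not separate the groups, every direction below is stated for the libraries labelled siFBXL6 against those labelled siNC.

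Marker genes of the epithelium, the urothelium and mesenchymal cells were read from short lists. All 7 epithelial markers were above 0.1 CPM, led by KRT7, a simple-epithelial keratin, at 1038 ± 21.1 CPM in siNC (SD, n = 3). Of 9 urothelial markers, 4 stayed under 0.1 CPM in every library, namely the uroplakin genes UPK1A, UPK1B and UPK3A and the umbrella-cell keratin KRT20. The most abundant of that list was the nuclear receptor gene PPARG, at 66.5 ± 1.38 CPM (SD, n = 3). FN1, which encodes fibronectin, led the mesenchymal markers at 2428 ± 71.8 CPM (SD, n = 3). VIM was far lower, at 15.6 ± 0.512 CPM, and ZEB1 was at 1.11 ± 0.076 CPM in siNC (SD, n = 3 each). The epithelial marker EPCAM was at 274 ± 10.1 CPM in siNC (SD, n = 3). The cell line is named by the labels, and its identity was not tested. The cadherin gene CDH1 was at 118 ± 2.71 CPM and CDH2 at 138 ± 1.83 CPM in siNC (SD, n = 3 each). Of the urothelial, epithelial and mesenchymal markers tested, 3 of 5, 6 of 7 and 3 of 4 were called, beside 40.2% of all genes tested. Only VIM (0.70 on the log2 scale) and CDH1 (0.16) rose. The others fell, namely KRT5 (-0.48), KRT8 (-0.29), KRT19 (-0.15), EPCAM (-0.15) and KRT7 (-0.08), CDH2 (-0.59) and FN1 (-0.16), and the scarce UPK3B (-1.19), GATA3 (-0.53) and FOXA1 (-0.27). The call of KRT7 (adjusted p = 0.019) was lost without siFBXL6 replicate 1 (0.074) or 3 (0.107).

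Markers of other cell types were summed per library. The summed level of 5 leukocyte markers ran from 0.889 to 1.88 CPM over the siNC libraries and from 1.09 to 1.12 CPM over the siFBXL6 libraries, with CD14 the most abundant and CD3E and CD79A under 0.1 CPM in every library. The summed level of 5 endothelial markers ran from 2.70 to 3.09 CPM in siNC and from 3.31 to 4.23 CPM in siFBXL6. KDR (mean 1.04 CPM) and VWF (1.02 CPM) were the most abundant in siNC, and their values overlapped. Of the 5 markers, PECAM1 rose (log2 fold change 1.28, adjusted p = 4.4e-05), and the other 4 were not called. The summed level of 5 fibroblast markers ran from 38.6 to 40.2 CPM in siNC and from 34.5 to 36.2 CPM in siFBXL6, most of it COL1A1, at 34.9 CPM in siNC, which fell by 0.15 (adjusted p = 0.0043) and was the only one of the 5 called. The part of these sums and markers in the differences described below was not tested, and in bulk RNA fewer cells of a type and less RNA per cell cannot be told apart.

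BMPs are secreted ligands of the TGF-β superfamily that bind pairs of receptor kinases, which phosphorylate SMAD1, SMAD5 and SMAD9. These join SMAD4 in the nucleus and switch on a short list of direct targets, of which the ID genes are the most widely used readout, and also the inhibitors that close the feedback loop, SMAD6, SMAD7 and BAMBI. ID proteins have a helix-loop-helix domain without the basic region, so they pair with E proteins and keep them and their tissue-restricted partners off DNA. In epithelia the pathway is best known for its part in the balance between proliferation and differentiation.

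In T24 cells 9 of the 10 genes were lower in the libraries labelled siFBXL6, and 4 of them, ATOH8, ID2, ID4 and SMAD6, by at least 2-fold. Without siFBXL6 replicate 1 these were 3, with SMAD6 at -0.98 on the log2 scale. BMP4 was the exception, with a log2 fold change of 0.11. All 10 passed the filter on low counts. The call rule was met by 9 members, beside 40.2% of all 21298 genes tested, and all 9 were lower, beside 19.8% of all genes tested called lower. At least 2-fold besides were 4 members, beside 2.92% of all genes. The CPM ranges of the groups did not overlap for 9 members, beside 48.2% of all genes. The median log2 fold change was -0.88 over the members and -0.01 over all genes tested. Nothing is read from these counts, because the same contrast chose the members.

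**Figure D1:**
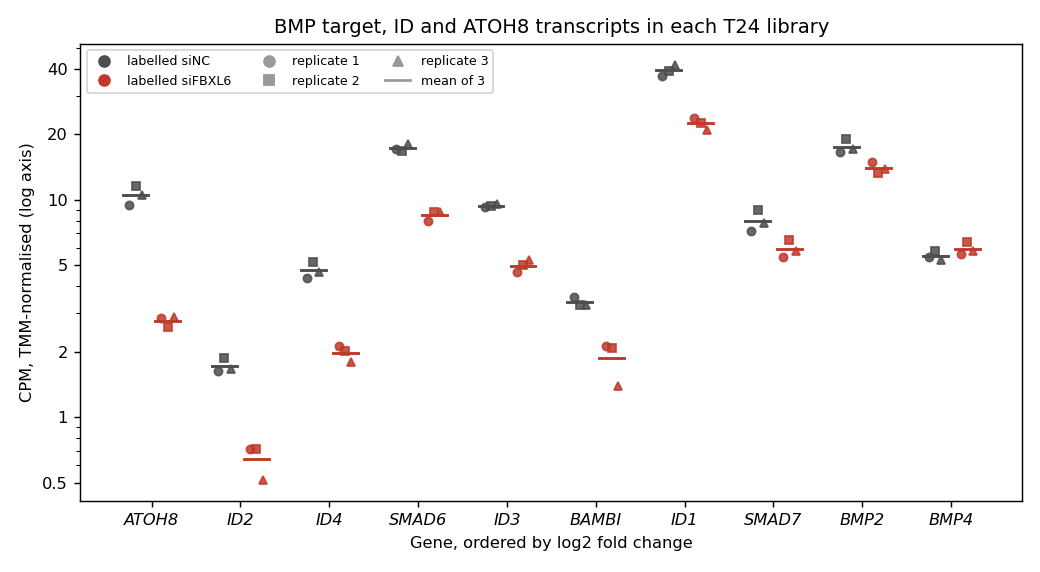
TMM-normalised CPM on a log axis for the 10 genes in each T24 library, with a marker for each replicate number and a line at the mean of 3. For 9 genes every library labelled siFBXL6 (red) lies below every siNC library (grey), from ATOH8 on the left to BMP2, while the BMP4 values overlap.

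ID1 was the most abundant ID transcript and the most abundant of the 10 genes. It lies on chromosome 20 (31605283 to 31606515, plus strand, GRCh38) and its protein is the classical reporter of BMP signalling. The siNC libraries held 2159, 2418 and 2395 counts and the siFBXL6 libraries 1440, 1364 and 1265. The groups stood well apart, and the 3 values within each lay close together. Mean CPM was 39.2 ± 2.40 in siNC and 22.4 ± 1.41 in siFBXL6 (SD, n = 3 each). On the log2 scale the difference was -0.81 (SE 0.050, 95% interval -0.91 to -0.70).

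ID3, on chromosome 1 (23557918 to 23559794, minus strand), is commonly induced together with ID1 by BMP. Its counts were 540, 580 and 547 in siNC and 282, 302 and 318 in siFBXL6. No library of either group came near the range of the other. The log2 fold change of -0.91 (SE 0.081, 95% interval -1.08 to -0.75) overlapped in its interval with that of ID1.

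ID4, on chromosome 6 (19837386 to 19840684, plus strand), is the ID family member with the most restricted expression in tissues. Counts of 255, 320 and 268 in siNC stood against 129, 122 and 108 in siFBXL6. All siFBXL6 values were below the lowest siNC value. With a log2 fold change of -1.26 (SE 0.121, 95% interval -1.50 to -1.01), siFBXL6 held 41.8% of the siNC mean CPM.

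ID2 had the largest difference among the ID genes and also the lowest counts, so its estimate is the least precise of the 10. It lies on chromosome 2 (8678845 to 8684453, plus strand). The siNC libraries held 95, 116 and 96 counts and the siFBXL6 libraries 43, 43 and 31. The groups did not overlap, and the third siFBXL6 library was the lowest. This amounted to a log2 fold change of -1.42 with an SE of 0.204, and siFBXL6 held 37.4% of the siNC mean CPM. Of its exon bases, 1.72% are shared with the antisense gene ID2-AS1, which had a mean count of 14.8 beside 70.7 for ID2, and without strand information reads in those 38 bases cannot be told apart.

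The promoter sequence of ID2 is shown because ID2 had the largest difference of the ID genes, and that of ATOH8 because it had the largest of all 10. Both are windows of 300 bases, from 250 before to 50 after the transcription start, from RefSeq on GRCh38.p14. RefSeq promoter windows matched 9 of the 10 genes by symbol, with 13 windows in all, and BMP2 is named only. Capitals mark matches to 3 short motifs searched on both strands, namely GGCGCC (the GC-rich element bound by BMP-activated SMADs), GTCT (the SMAD box, AGAC on the other strand) and CANNTG (the E-box bound by basic helix-loop-helix proteins). The first and the last of these read alike on both strands, and no match overlapped a match to another motif in the member windows. The ID2 window is chr2:8681806-8682105 and the ATOH8 window chr2:85753741-85754040, both on the plus strand. In the annotation used for counting, 252 bases of the ID2 window and 147 of the ATOH8 window fall in exons of the same gene.
ID2: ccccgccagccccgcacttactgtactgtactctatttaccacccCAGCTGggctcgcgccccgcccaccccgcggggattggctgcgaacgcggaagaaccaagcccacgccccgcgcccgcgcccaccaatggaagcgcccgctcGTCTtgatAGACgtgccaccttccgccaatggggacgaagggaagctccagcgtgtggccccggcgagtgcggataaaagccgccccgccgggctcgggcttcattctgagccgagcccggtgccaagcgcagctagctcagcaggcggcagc
ATOH8: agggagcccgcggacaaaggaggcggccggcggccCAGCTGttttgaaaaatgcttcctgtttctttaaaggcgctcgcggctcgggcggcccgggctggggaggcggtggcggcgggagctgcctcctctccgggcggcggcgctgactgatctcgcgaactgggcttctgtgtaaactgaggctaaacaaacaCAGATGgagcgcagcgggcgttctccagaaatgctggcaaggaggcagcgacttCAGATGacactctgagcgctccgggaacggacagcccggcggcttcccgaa
In the ID2 window GTCT and AGAC each occurred once, 103 and 95 bases before the start, and an E-box (CAGCTG) lay 205 bases before it. The ATOH8 window held 3 E-boxes, at 215, 55 and 1 bases before the start, and no match to GGCGCC or GTCT.

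Over all 35116 promoter windows of this length, 19.2% held GGCGCC, 84.0% held GTCT on either strand and 68.7% held CANNTG. Of the 13 windows of the genes described, 2 held GGCGCC (15.4%), 12 held GTCT (92.3%) and 7 held CANNTG (53.8%). The median GC content was 64.7% over the 13 windows and 58.7% over all windows. A match is a string of letters in a window and not a binding site.

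Taken per length, ID1 dominated the family. The summed level of the 4 ID genes was 39.8 ± 2.11 CPM per kb of exon length in siNC and 22.1 ± 1.10 in siFBXL6 (SD, n = 3 each), so that siFBXL6 held 55.5% of the siNC sum. ID1 made up 79.8% of the sum in siNC and 82.3% in siFBXL6. The sum over the E protein genes TCF3, TCF4 and TCF12, the binding partners of ID proteins, was 29.2 ± 0.691 in siNC and 23.3 ± 0.412 CPM per kb in siFBXL6 (SD, n = 3 each). The ratio of the ID sum to the E protein sum was 1.37 ± 0.050 in siNC and 0.949 ± 0.035 in siFBXL6 (SD, n = 3 each). These sums were formed after the values were seen and describe transcripts, not proteins. The sums and their ratio also depend on the annotated exon lengths, which were 1233 bases for ID1 and 27961 for TCF4.

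**Figure D2:**
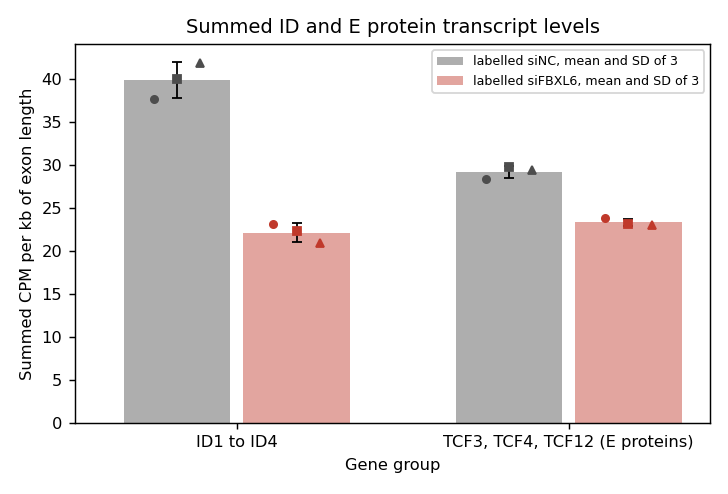
Summed CPM per kb of exon length of ID1 to ID4 and of the E protein genes TCF3, TCF4 and TCF12, with bars for the mean, error bars for the SD and points for the 3 libraries of each group. The ID sum was 39.8 in siNC and 22.1 in siFBXL6, and the E protein sum 29.2 and 23.3.

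ATOH8 had the largest difference of the 10 genes. It encodes a basic helix-loop-helix protein of the atonal family and is a BMP-responsive gene in endothelium and liver. It lies on chromosome 2 (85751344 to 85788066, plus strand), 77.1 Mb from ID2. Counts were 553, 716 and 605 in siNC and 172, 157 and 175 in siFBXL6. Every siFBXL6 library was far below the lowest siNC library, and the 3 siFBXL6 values were close together. Mean CPM was 10.5 ± 1.07 in siNC and 2.78 ± 0.161 in siFBXL6 (SD, n = 3 each), which is 3.78-fold lower, at a log2 fold change of -1.92 (SE 0.095, 95% interval -2.11 to -1.73). Ordered by log2 fold change from the lowest, ATOH8 stood at place 26 of the 21298 genes tested.

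SMAD6 and SMAD7 encode inhibitory SMADs. SMAD6 acts mainly on BMP signals, while SMAD7 blocks BMP, TGF-β and activin receptors alike. For SMAD6, on chromosome 15 (66702228 to 66782848, plus strand), the siNC libraries held 1004, 1038 and 1036 counts and the siFBXL6 libraries 480, 531 and 527. The groups were far apart and tight, at a log2 fold change of -1.03 (SE 0.065, 95% interval -1.16 to -0.90). For SMAD7, on chromosome 18 (48919853 to 48950711, minus strand), counts were 422, 552 and 450 in siNC and 331, 395 and 350 in siFBXL6. Its groups were much closer than those of SMAD6, with a small gap between the lowest siNC and the highest siFBXL6 value. The log2 fold change was -0.43 (SE 0.090, 95% interval -0.61 to -0.25), an interval that lies apart from that of SMAD6.

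BAMBI encodes a pseudoreceptor that resembles a type I receptor without the kinase domain and damps BMP and TGF-β signals. It lies on chromosome 10 (28677342 to 28682939, plus strand). Counts were 208, 202 and 189 in siNC and 128, 126 and 84 in siFBXL6. The third siFBXL6 library was the lowest, and no siFBXL6 value reached the siNC range. BAMBI had a log2 fold change of -0.85 (SE 0.144, 95% interval -1.15 to -0.56).

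The ligand genes differed least with all libraries, though the intervals of BMP2 and SMAD7 overlapped. Without siFBXL6 replicate 1 both BMP2 and SMAD7 were at -0.37 on the log2 scale. BMP2, on chromosome 20 (6767664 to 6780280, plus strand) and 24.8 Mb from ID1, had 970, 1171 and 983 counts in siNC and 898, 797 and 837 in siFBXL6. In CPM the siFBXL6 libraries, at 14.8, 13.2 and 13.9, were below the siNC libraries, at 16.6, 18.9 and 17.1. This gave a log2 fold change of -0.33 (SE 0.062, 95% interval -0.45 to -0.20). BMP4, on chromosome 14 (53949736 to 53958761, minus strand), had 318, 358 and 302 counts in siNC and 340, 385 and 350 in siFBXL6. The groups overlapped, and the log2 fold change of 0.11 had a 95% interval from -0.07 to 0.29 and was 0.06 without siFBXL6 replicate 2. The 10 genes lie on 8 chromosomes.

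**Figure D3:**
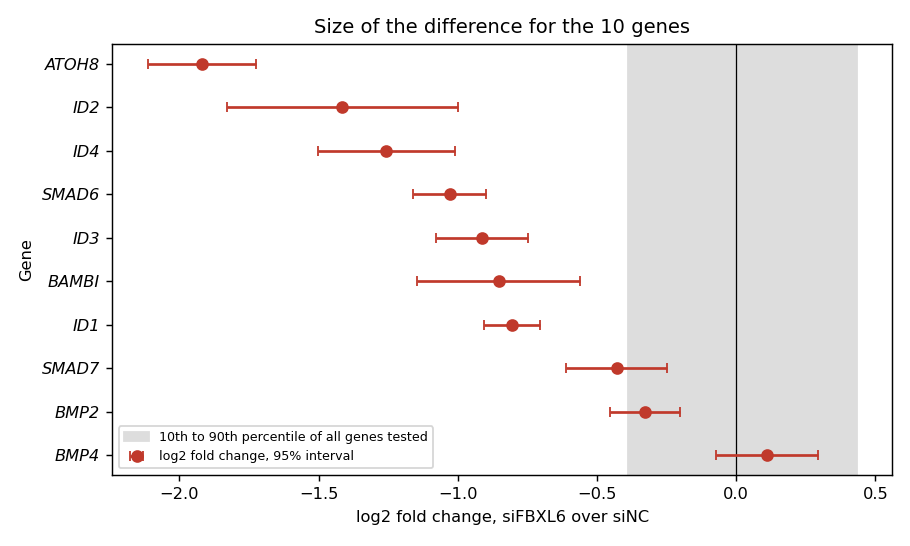
Log2 fold change of siFBXL6 over siNC for the 10 genes with 95% intervals, beside a grey band from the 10th to the 90th percentile of all genes tested (-0.39 to 0.43). ATOH8 at -1.92 lies farthest from 0, and BMP2 at -0.33 and BMP4 at 0.11 lie inside the band.

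Per exon length the 10 genes spanned a wide range of levels. In siNC, ID1 led at 31.8 ± 1.94 CPM per kb, followed by ID3 at 5.22 ± 0.082 and BMP2 at 4.87 ± 0.345, and ID2 was last at 0.782 ± 0.061 (SD, n = 3 each). Between them came SMAD7 (2.16), SMAD6 (2.02), ID4 (2.02), BMP4 (1.78), ATOH8 (1.73) and BAMBI (1.46). Only 4 of the 9 pairs of neighbours in this order were separate in all libraries, those of ID1 with ID3, BMP2 with SMAD7, ATOH8 with BAMBI and BAMBI with ID2. ID3 and BMP2, and each pair of neighbours from SMAD7 down to ATOH8, did not differ beyond their spread. That spread is between libraries only. The exon lengths, from 1233 bases for ID1 to 8563 for SMAD6, take in every annotated exon of a gene. Which transcripts were expressed was not tested, so the order between genes also depends on these lengths.

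The order differed in the libraries labelled siFBXL6. ID1 was still first, at 18.2 ± 1.15 CPM per kb, and ID2 last, at 0.293 ± 0.052 (SD, n = 3 each). BMP2 at 3.88 stood above ID3 at 2.77, and BMP4 at 1.92 stood above SMAD7 at 1.61 and SMAD6 at 0.991. ID4 at 0.845 and BAMBI at 0.806 did not differ beyond their spread, and the other 8 of 9 pairs of neighbours were separate. ATOH8, at 0.458, was next to last. The highest level was 40.7 times the lowest in siNC and 62.2 times in siFBXL6.

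**Figure D4:**
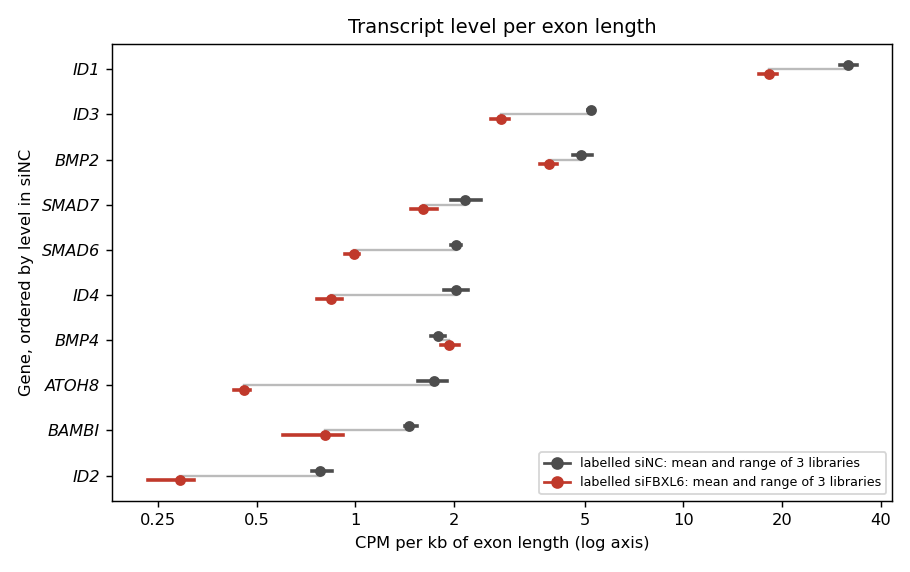
Transcript level per exon length (CPM per kb, log axis) of the 10 genes, with the mean and the range of 3 libraries for siNC (grey) and siFBXL6 (red), ordered by the siNC level. ID1 is highest in both groups, at 31.8 and 18.2, and ID2 lowest, at 0.782 and 0.293.

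The genes whose pattern over the 6 libraries was most like that of ATOH8 were CXXC5 (Pearson r = 0.9993 of log2 CPM), ARRDC3 (r = 0.9991) and BRF1 (r = 0.9991), out of 16190 genes that averaged 1 CPM or more. CXXC5 had a mean of 9.60 CPM in siNC and 5.47 CPM in siFBXL6. For ID1 they were ZNF697 (r = 0.9995), UQCRC1 (r = 0.9991) and CEP68 (r = 0.9983). With 6 libraries in 2 groups such values mostly restate the split between the groups, and 2433 genes reached an r over 0.9 with ATOH8 and 2316 with ID1.

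The rest of the pathway was read from 8 lists of 110 genes, of which 79 genes passed the filter on low counts. Of these, 48 were called (60.8%, beside 40.2% of all genes tested), 20 higher and 28 lower, and TLL2 was the only gene changed at least 2-fold. Their median log2 fold change was -0.07, beside -0.01 over all genes. The lists were chosen with earlier results of these data known. The share called also depends on how many counts the genes have, and genes of like level were not compared.

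Of 16 other genes known to be induced by BMP, 12 were tested and 8 were called, all 8 lower (66.7%, beside 40.2% of all genes tested called and 19.8% called lower), with a median log2 fold change of -0.40 over the 12. The T-box gene TBX3 was the most abundant per length, at 8.63 CPM per kb in siNC, and fell by 0.53 on the log2 scale (SE 0.041, adjusted p = 7.4e-13 in edgeR). The homeobox gene MSX2, a direct BMP target in limb and craniofacial tissue, went from 17.5 ± 1.20 to 10.6 ± 1.34 CPM (SD, n = 3 each) and so fell, at -0.73 on the log2 scale (SE 0.072, adjusted p = 3.6e-10). DLX5, a homeobox gene of the bone lineage, fell by 0.66 (SE 0.082, adjusted p = 4.3e-08). DLX3 had the largest change of the list, at -0.98 (SE 0.166, adjusted p = 9.5e-06), from 121, 129 and 142 counts in siNC to 62, 68 and 72 in siFBXL6. The other 4 called were GATA3 (-0.53), GATA2 (-0.44), DLX1 (-0.37) and RUNX2 (-0.19). GATA3 is also a urothelial marker. Not called were DLX2 (-0.17), MSX1 (-0.31), DLX6 (-0.15) and HEY1 (0.04), and single libraries moved DLX2 both ways, to -0.26 without siNC replicate 1 (adjusted p = 0.041) and to -0.08 without siFBXL6 replicate 2 (adjusted p = 0.613). DLX6 was at -0.04 without siFBXL6 replicate 3, and HEY1 changed sign without siNC replicate 1 or siFBXL6 replicate 1.

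Among extracellular BMP antagonists and the proteases that cleave chordin, 13 of 20 genes were tested and 8 were called, 6 higher and 2 lower (median log2 fold change 0.10). FST, whose product follistatin binds activin and some BMPs, rose from 819, 871 and 786 counts in siNC to 1609, 1551 and 1558 in siFBXL6. The groups were far apart, and the log2 fold change was 0.90 (SE 0.052, adjusted p = 4.2e-16 in edgeR). NBL1, a DAN-family antagonist, rose by 0.39 on the log2 scale (adjusted p = 5.3e-07), and NOG, the gene for noggin, by 0.36 (adjusted p = 0.0052). FSTL1, the most abundant per length at 35.7 CPM per kb in siNC, rose by 0.10 (adjusted p = 0.0071). The chordin protease genes moved both ways. BMP1 fell by 0.32 (adjusted p = 6.2e-07) and TLL1 by 0.41 (adjusted p = 2.5e-05), while the scarce TLL2 rose by 1.37 (SE 0.268, adjusted p = 8.6e-05), from 21, 30 and 17 counts to 63, 62 and 54.

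SMADs of the BMP branch and their regulators gave 6 calls among 11 genes tested, 3 higher and 3 lower (median log2 fold change -0.06). The ubiquitin ligase genes NEDD4L, SMURF2 and SMURF1 were the 3 that rose. Their products mark SMADs and receptors of the superfamily for degradation. NEDD4L went from 103 ± 2.76 to 197.0 ± 4.09 CPM (SD, n = 3 each) and so rose, by 0.93 on the log2 scale (SE 0.032, adjusted p = 2.7e-22). SMURF2 rose by 0.52 (SE 0.031, adjusted p = 8.0e-16) and SMURF1 by 0.40 (SE 0.034, adjusted p = 1.2e-11). SKIL, a co-repressor of SMADs and the most abundant of the list per length at 18.2 CPM per kb in siNC, fell by 0.47 (SE 0.030, adjusted p = 8.9e-15). The other 2 that fell were SMAD9 (-0.26, adjusted p = 0.037) and SMAD4 (-0.13, adjusted p = 0.019). With any 1 library dropped, SMAD9 stayed between -0.30 and -0.22 on the log2 scale and SMAD4 between -0.16 and -0.11. Neither call was stable, and the reason was not tested. That of SMAD4 was lost without siNC replicate 3 (adjusted p = 0.090) or siFBXL6 replicate 3 (0.082), and that of SMAD9 without any 1 of 5 libraries, all but siNC replicate 3, as well as in DESeq2 (0.074) and with no filter on low counts (0.062). SMAD1 and SMAD5 were not called, at -0.20 (95% interval -0.37 to -0.02, adjusted p = 0.063) and -0.06 (95% interval -0.15 to 0.03, adjusted p = 0.325). SMAD1 was called without siNC replicate 3 (adjusted p just under 0.05), with libraries scaled by their totals alone (adjusted p = 0.038) and with upper-quartile normalization (0.040), while without siNC replicate 1 its adjusted p was 0.162. SMAD5 was at -0.02 without siNC replicate 2 and at -0.03 without siFBXL6 replicate 1.

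Of the receptor and co-receptor genes, 11 of 12 were tested and 6 were called, 2 higher and 4 lower (median log2 fold change -0.08). NEO1, the receptor of repulsive guidance molecules and the most abundant per length at 4.83 CPM per kb in siNC, fell by 0.33 (SE 0.041, adjusted p = 3.6e-08). ACVR2A, a type II receptor shared with activin, fell by 0.38 (SE 0.067, adjusted p = 1.5e-05), and the type I receptor gene ACVR1 rose by 0.33 (SE 0.061, adjusted p = 3.4e-05). BMPR1B, at 1.99 CPM in siNC, fell by 0.59 (SE 0.166, adjusted p = 0.0042). The more abundant BMPR1A, at 16.6 CPM in siNC, fell by 0.18 (SE 0.063, adjusted p = 0.020), though its CPM ranges overlapped. RGMB rose by 0.44 (SE 0.089, adjusted p = 1.4e-04). BMPR2 was not called, with a log2 fold change of -0.08 (95% interval -0.18 to 0.02, adjusted p = 0.227), and was at -0.02 without siFBXL6 replicate 1.

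Only 4 of the 12 other BMP ligand genes passed the filter, and 1 was called. GDF7 had 138, 121 and 152 counts in siNC and 83, 115 and 110 in siFBXL6, a log2 fold change of -0.45 (SE 0.160, adjusted p = 0.024). This call was lost without siNC replicate 3 (-0.34, adjusted p = 0.136) or siFBXL6 replicate 1 (-0.31, adjusted p = 0.162). BMP8B, the most abundant of these per length, reached 0.394 CPM per kb in siNC, below BMP4 at 1.78 and BMP2 at 4.87. It is nearly identical to BMP8A, so its counts are uncertain.

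Of the 18 genes for E proteins and tissue-restricted helix-loop-helix partners, 8 were tested and 4 were called, 1 higher and 3 lower (median log2 fold change -0.06). The E protein genes TCF12, TCF3 and TCF4 were the 3 lower. TCF12 fell by 0.51 (SE 0.032, adjusted p = 4.6e-15), TCF3, the most abundant of the list at 19.3 CPM per kb in siNC, by 0.24 (SE 0.034, adjusted p = 8.0e-07) and TCF4 by 0.48 (SE 0.098, adjusted p = 1.4e-04). TWIST1, a partner of E proteins known for its part in the epithelial to mesenchymal transition, rose by 0.49 (SE 0.081, adjusted p = 7.1e-06).

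The neighbouring TGF-β and activin branch had 12 genes, all tested, with 9 called, 6 higher and 3 lower (median log2 fold change 0.09). TGFBR1 rose by 0.56 (SE 0.038, adjusted p = 4.1e-14) and TGFB2 by 0.55 (SE 0.039, adjusted p = 1.4e-13), while ACVR1B, an activin receptor gene, fell by 0.33 (SE 0.054, adjusted p = 4.6e-06). INHBA, the activin subunit gene and the most abundant of the list at 58.0 CPM per kb in siNC, had a log2 fold change of 0.06 (adjusted p = 0.074) and was called without siNC replicate 1 (0.07, adjusted p = 0.018), while without siNC replicate 3 its adjusted p was 0.255.

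Of 8 genes induced by TGF-β, 6 were called, 2 higher and 4 lower (median log2 fold change -0.04). CTGF, now named CCN2, fell by 0.61 (SE 0.082, adjusted p = 1.6e-07) and TGFBI by 0.21 (SE 0.032, adjusted p = 1.6e-06). PMEPA1, the most abundant per length at 55.1 CPM per kb in siNC, fell by 0.07 (SE 0.030, adjusted p = 0.045), a call that was lost without siNC replicate 2 (adjusted p = 0.197), siNC replicate 3 (0.076) or siFBXL6 replicate 1 (0.106), 2 (0.112) or 3 (0.140).

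**Figure D5:**
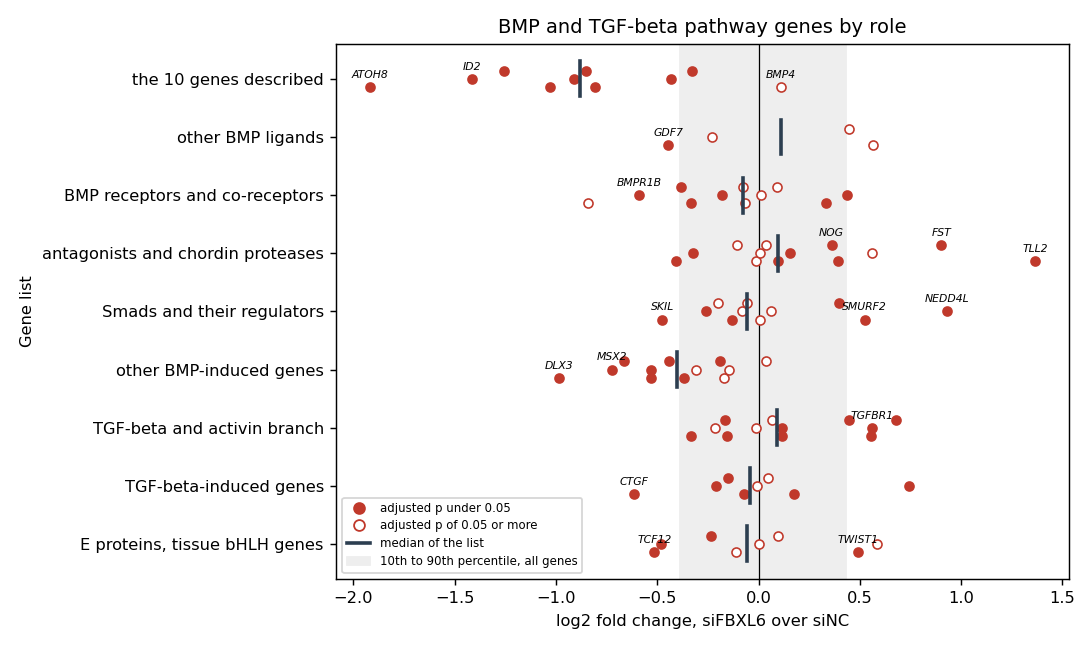
Log2 fold change of siFBXL6 over siNC for the 10 genes and for the genes of 8 pathway lists that passed the filter, with filled points for an adjusted p under 0.05, a bar at each list's median and a grey band from the 10th to the 90th percentile of all genes tested. The other BMP-induced genes have a median of -0.40, and the medians of the remaining lists lie between -0.08 and 0.11.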

How the data were processed

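Per the study's methods and the submitters' processing notes, the authors counted reads per gene with featureCounts (Subread 1.5.1) on GRCh38 and deposited raw counts for 6 libraries made with a stranded mRNA kit. The methods name Trimmomatic and HISAT2, and the notes fastp 0.23.0 and STAR, so the trimmer and aligner are uncertain. The strand setting and the treatment of multi-mapped reads are not given in the sources used here. Many of the lowest counts are even, as for LUM (20, 12 and 12 in siNC, 8, 12 and 8 in siFBXL6). Whether both reads of a pair were counted was not tested.

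Genes were filtered with filterByExpr (21298 of 56303 kept), normalized by TMM and tested in edgeR 4.0.16 (with limma 3.58.1 under R 4.3.3) by quasi-likelihood, with the group as the only term and Benjamini-Hochberg adjustment over all genes tested. DESeq2 1.42.0 was an alternative. Intervals (95%) use the model's standard error. Lengths are summed exon lengths, and coordinates are the outer limits of the exons in the table. The steps were tested on simulated counts with far fewer changed genes than were called here, each changed by at least 2-fold. The share of false calls in a setting like these data was not tested.

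The members and lists were chosen with earlier results of these data known. From each pathway list the 3 called genes with the smallest adjusted p, the most abundant per length and any changed at least 2-fold were named, except 1 gene that is not reported here. Named after their values were seen were NOG, TLL1, BMPR1B, BMPR2, SMAD1, SMAD4, SMAD5, SMAD9, SMURF1, DLX1, DLX2, DLX3, DLX6, MSX1, GATA2, GATA3, RUNX2, HEY1, TCF4, PECAM1, COL1A1, VIM, FN1, CDH1, CDH2, KRT5, KRT7, KRT8, KRT19, EPCAM, FOXA1 and UPK3B. BMPR1A and RGMB were also named after their values were seen. Likeness is Pearson's r of log2 CPM (prior count 2).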

Additional observations from a re-analysis of the deposited data

How the results depend on the processing

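The 10 genes kept their direction and their side of the threshold in all 130 values over 13 alternatives, which were 3 other normalizations, DESeq2, 2 other filters on low counts, the replicate block and each library left out in turn. Over these the ATOH8 log2 fold change ran from -1.99 to -1.84 and that of BMP4 from 0.06 to 0.15. The count of members lower by at least 2-fold, recounted under each alternative after seeing the data, was 4 in all but 1, and 3 without siFBXL6 replicate 1, where SMAD6 was at -0.98. FBXL6 was called in none of the 13, with log2 fold changes from -0.20 to -0.09. Requiring at least 2-fold besides left 622 of 8569 genes called, 4 of 9 members and 1 of 48 pathway genes. Of 754 values for 58 other named genes (without BMPR1A and RGMB), 19 lost the call, 5 gained it and 2 reversed. Both reversals were of HEY1, which was not called and ran from -0.043 to 0.082 with libraries left out. Values that lost the call belonged to GDF7, PMEPA1, SMAD4, SMAD9 and KRT7, and those that gained it to INHBA, SMAD1 and DLX2. Without siNC replicate 3 or siFBXL6 replicate 1 the count of called ligand genes was 0 in place of 1. No pairing by the numbers in the labels was seen. Deviations of libraries with the same number had correlations of -0.036, 0.012 and -0.011, and those with different numbers ran from -0.029 to 0.037. Deviations were taken from each group's own mean, which ties these values together, so they cannot show that the libraries were unpaired. With the replicate block 8408 genes, 9 members and 47 pathway genes were called, FBXL6 had a log2 fold change of -0.13, and the call of PMEPA1 was lost (adjusted p = 0.051). Over all alternatives 7451 to 8707 genes were called. The cause of these changes was not tested. Among the 10 genes depth limits ID2 most, which had 31 to 116 counts per library.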
